A study of Mus musculus with 30 samples.

Results

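Livers of mice kept on a choline-deficient high-fat diet (CD-HFD) and given aspirin with clopidogrel were compared with livers of chow-fed mice. The members are 11 of the 30 arrays of the study, chosen by their titles, 6 treated and 5 chow, with 1 array per mouse. Per the labels, the treated samples are non-tumor tissue from a diet model of steatohepatitis and liver cancer, the drugs were given prophylactically, and the liver status is chronic damage. The chow samples carry the liver status healthy and the treatment vehicle. The labels give no strain, age, sex, dose, duration or collection time. The other arrays come from mice on CD-HFD given vehicle (5 without and 4 with hepatocellular carcinoma, HCC) or sulindac (10). The treated and chow groups differ in diet and in drug, so diet and drug cannot be told apart in this comparison.

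A choline-deficient diet limits the export of fat from hepatocytes as lipoprotein, and with a high fat load the liver becomes steatotic and inflamed. Aspirin acetylates the cyclooxygenases Ptgs1 and Ptgs2. Clopidogrel is activated by liver enzymes and then blocks P2ry12, the platelet receptor for ADP. Many liver genes in rodents differ by sex because males secrete growth hormone in pulses and females nearly continuously, and the hormone acts on hepatocytes through STAT5b. Xist, the non-coding RNA that coats the inactive X chromosome, is made in female cells, and Eif2s3y, Kdm5d and Uty lie on the Y chromosome.

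The treated group was not uniform in these sex-linked transcripts. On the log2 intensity scale used throughout, Xist was 4.82, 4.69, 4.81, 4.69 and 4.82 in the chow mice. In the treated group it was 10.95 to 11.21 in 4 mice (AspClo_58, AspClo_61, AspClo_63 and AspClo_64) and 4.80 and 4.56 in the other 2 (AspClo_60 and AspClo_62). Eif2s3y, a translation initiation factor subunit, ran the other way, at 4.14 to 5.21 in the same 4 mice, 9.09 and 9.10 in the other 2 and 8.37 to 9.12 in the chow mice. The histone demethylases Kdm5d and Uty were likewise lower in those 4 mice (4.43 to 4.95 and 4.41 to 4.75) than in any chow mouse (5.97 to 6.15 and 5.28 to 5.66). No array outside the treated group had this pattern. The 4 are called the Xist-high mice below and the 2 the Xist-low mice. The labels neither give nor contradict a sex, so the genes and lists below are also given without the Xist-high mice. That fit has 2 treated mice against 5, and the split was made after the data were seen.

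**Figure D1:**
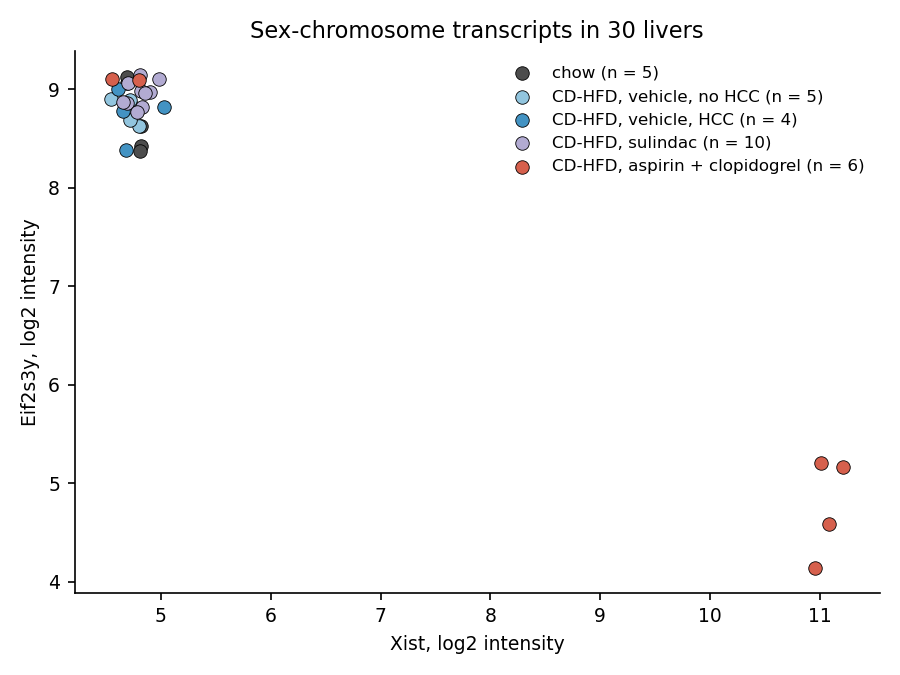
Xist against Eif2s3y, both as log2 intensity, with 1 point per mouse for all 30 mice, coloured by group. 4 of the 6 aspirin and clopidogrel livers lie alone at high Xist (10.95 to 11.21) and low Eif2s3y (4.14 to 5.21), and every other liver lies at low Xist and high Eif2s3y.

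The arrays were alike in quality, with median intensities of 24.1 to 24.6 and correlations of 0.9741 to 0.9964 between pairs of the 11 arrays. Hepatocyte markers were high throughout: Alb, which encodes albumin, lay between 13.52 and 13.68 and Ttr, which encodes transthyretin, between 13.05 and 13.19. Lists of skeletal muscle (15 genes) and exocrine pancreas (16 genes) had a median change of 0.00 and no member past the test. Chow mice Hlth_1798 and Hlth_1807 stood apart. The acute phase gene Lcn2 was 11.23 and 10.41 in them and 4.78 to 6.48 in the other chow mice, against 6.63 to 10.73 in the treated mice. RNA is from whole tissue, so a change in the number of cells of a type and a change in RNA per cell cannot be told apart. The labels do not say how cages or litters were arranged, and p-values measure the spread between these mice.

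Of 17097 genes, 473 differed between the groups at an adjusted p under 0.05 (2.77%), 280 higher (1.64%) and 193 lower (1.13%) in the treated livers, with a median absolute log2 change of 0.52. A log2 change of at least 1 was reached by 48 of the higher and 36 of the lower genes. Without any overlap between the 6 treated and 5 chow values, 203 genes were higher (1.19%) and 140 lower (0.819%). Without both chow mice Hlth_1798 and Hlth_1807, 437 genes were higher and 391 lower. Of the 473 genes, 323 were among them in the same direction. Without Hlth_1798 alone the counts were 320 and 261, and without Hlth_1807 alone 229 and 177. When only the 11 arrays were used to estimate the spread, 42 were higher and 32 lower. Single mice moved the counts: 165 and 127 without AspClo_61, 173 and 110 without AspClo_58, 203 and 124 without AspClo_64, 174 and 130 without Hlth_1965, and 418 and 311 without AspClo_62.

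The count moved with the Xist-high mice. Without the 2 Xist-low mice 979 genes passed (5.73%), and without the 4 Xist-high mice 37 passed (0.216%), of which 23 were among the 473 and moved the same way. The Xist-low mice still moved in the same direction for 463 of the 473 genes and by at least 0.5 of the size for 363. For 264 genes both Xist-low mice lay outside the chow range on the side of the change, and for 215 all 6 treated mice did. These counts describe genes already chosen with the Xist-low mice in the fit. Of the 473 genes 18 lie on the X chromosome (596 tested) and 2 on the Y chromosome (12 tested), and without both chromosomes 268 genes were higher and 184 lower.

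Many of the largest changes were in sex-biased liver genes, and several separated the treated mice as Xist did. Sult2a2, a female-predominant hydroxysteroid sulfotransferase, was 4.30, 4.36, 4.67, 4.29 and 4.48 in chow livers, 12.20 to 12.44 in the Xist-high mice and 4.39 and 4.43 in the Xist-low mice. Its mean difference of 5.23 (SE 1.06, adjusted p = 0.00598) was -0.01 without the Xist-high mice. The fit uses 1 spread per gene for all groups, but the SD of Sult2a2 was 4.06 in treated and 0.16 in chow livers. For genes split in this way the SE understates the spread of the treated mice. Cyp3a41a and Cyp3a16, female-predominant monooxygenases, had differences of 3.89 and 3.39 (adjusted p = 0.0106 and 0.00683) that became -0.22 and -0.06. Slc22a26, an organic anion transporter family member, averaged 3.92 higher (SE 0.705, adjusted p = 0.00192). It was 9.54 to 10.45 in the Xist-high mice, 5.21 and 4.66 in the Xist-low mice and 4.25 to 4.56 in chow livers. Of 14 measured female-biased genes all were higher on average and 10 passed the test, against 1.64% of all genes that rose. Their median difference was 3.29, against 0.003 over all genes. Without the Xist-high mice 9 of 14 were higher, none passed, and the median was 0.16. The 6 treated mice had list scores of 0.69 to 4.35 relative to the chow mean, and the chow mice -0.16 to 0.14. The Xist-low mice, at 0.69 and 0.78, lay within the scores of the other CD-HFD groups. Those were -0.50 to 1.18 under vehicle without HCC, 0.09 to 0.86 with HCC and -0.01 to 1.33 under sulindac.

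The male-biased genes mirrored this. Cyp4a12a, a male-predominant fatty acid and arachidonate hydroxylase, was 9.90, 11.53, 11.57, 11.39 and 11.74 in chow livers and had a lowest, median and highest value of 5.66, 5.77 and 10.38 in treated livers, a difference of -4.11 (SE 0.73, adjusted p = 0.00167). The 2 Xist-low mice (9.34 and 10.38) lay 1 inside and 1 below the chow range, and chow mouse Hlth_1798 was the lowest chow liver. Cyp2d9, a steroid hydroxylase, differed by -2.15 (adjusted p = 0.00753) and by -0.11 without the Xist-high mice. Elovl3, a fatty acid elongase, was below the chow range (10.78 to 11.63) in all 6 treated livers, at 10.71 and 10.67 in the Xist-low mice and 6.35 to 8.12 in the others, a difference of -2.77 (SE 0.572, adjusted p = 0.00621). C6, a terminal complement component, was also below the chow range (10.09 to 11.36) in all 6, at 9.67 and 9.85 in the Xist-low mice, a difference of -2.05 (SE 0.389, adjusted p = 0.00322). Of 16 male-biased genes 4 fell past the test and none rose, against 1.13% and 1.64% of all genes. Their median was -1.09, or -0.10 without the Xist-high mice.

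Some of these genes lay outside the chow range in the Xist-low mice too, though none passed with them alone. Cyp2b9, a female-predominant phenobarbital-family monooxygenase, was 9.52, 6.38, 6.48, 5.57 and 5.66 in chow livers and 10.66 and 10.60 in the Xist-low mice, close to the 11.29 to 11.48 of the Xist-high mice. The mean difference was 4.44 (SE 0.901, adjusted p = 0.00615), and 3.91 (SE 1.34, adjusted p = 0.364) with the Xist-low mice alone. Vehicle livers on the same diet without HCC were 9.78, 10.8, 10.79, 4.14 and 4.69, so their mean of 8.04 lies between 2 levels. Vehicle livers with HCC averaged 9.72, and sulindac livers 10.04. Hao2, a peroxisomal hydroxyacid oxidase, was 7.76 and 8.0 in the Xist-low mice, above all chow livers (5.51 to 6.52) and below the Xist-high mice (10.62 to 11.24), with a difference of 3.92 (SE 0.616, adjusted p = 0.000448). Nat8f5, an N-acetyltransferase family member outside the sex-biased lists, was 7.19, 9.51, 9.60, 9.32 and 8.81 in chow livers and 5.13 to 6.93 in treated livers, a difference of -3.12 (SE 0.406, adjusted p = 8.62e-05). The 6 treated livers all lay below the chow range, and without the Xist-high mice the difference was -2.39 (SE 0.564, adjusted p = 0.0937).

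**Figure D2:**
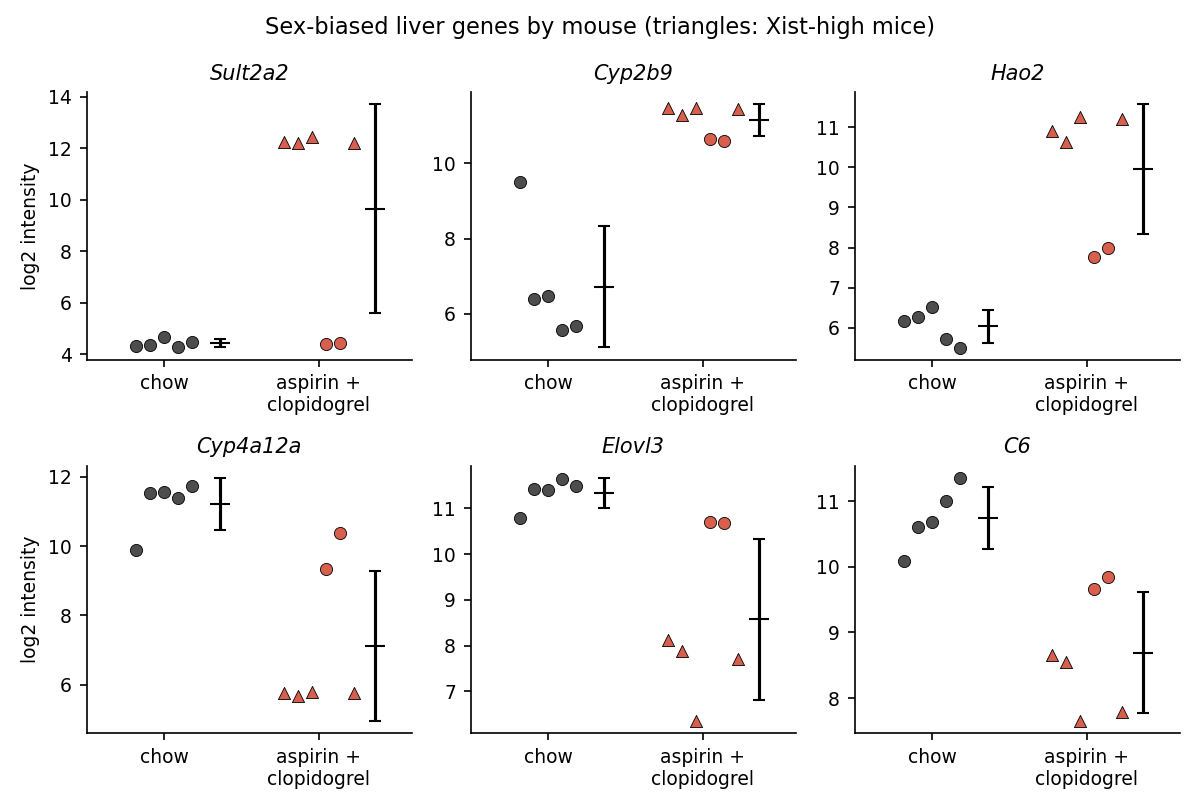
Sult2a2, Cyp2b9, Hao2, Cyp4a12a, Elovl3 and C6 as log2 intensity in 5 chow and 6 treated mice, with triangles for the 4 Xist-high mice and bars for the group mean ± SD. Sult2a2 separates the treated mice into 12.20 to 12.44 and 4.39 to 4.43, whereas Cyp2b9 and Hao2 are above, and Elovl3 and C6 below, every chow mouse in all 6.

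In the growth hormone pathway, 3 of 16 genes rose past the test and none fell, against 1.64% and 1.13% of all genes. Socs2, a feedback inhibitor induced by STAT5, had a lowest, median and highest value of 8.21, 8.84 and 10.21 in treated livers and was 6.94, 7.70, 6.14, 7.30 and 8.62 in chow livers, a difference of 1.62 (SE 0.454, adjusted p = 0.0484). The ranges overlapped, 2 of its 4 probe sets moved the other way, and leaving out any of 9 of the 11 mice ended the call (adjusted p up to 0.158). Cux2, a homeodomain repressor that marks female liver, was 4.69 and 4.61 in the Xist-low mice, inside the chow range of 4.49 to 4.73, and 5.29 to 7.44 in the Xist-high mice. It rose by 1.48 (adjusted p = 0.0195), a call that ended without AspClo_58, AspClo_61 or AspClo_64 (adjusted p up to 0.0632). Igfbp3, a carrier of IGF1, rose by 1.16 (adjusted p = 0.0381), and leaving out any of 8 mice ended that call (adjusted p up to 0.11). Socs2 and Igfbp3 differed by 1.87 and 0.91 (adjusted p = 0.385 and 0.664) in the Xist-low mice. The hormone's own effectors gave no call: Stat5b differed by 0.10 (adjusted p = 0.834) and Igf1, the circulating growth factor, by 0.13 (adjusted p = 0.282).

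The 150 bases before the start of Slc22a26 are shown because this gene had among the widest gaps between Xist-high and other livers. The letters TTCNNNGAA, the core that STAT proteins bind (the same on both strands), occur 141 to 133 bases before the start and are in capitals. Promoter sequences here are from RefSeq, build GRCm38.p6, and 82 of 107 genes past the test for which values were extracted had a window in that table.
Slc22a26, chr19:7802668-7802817, minus strand: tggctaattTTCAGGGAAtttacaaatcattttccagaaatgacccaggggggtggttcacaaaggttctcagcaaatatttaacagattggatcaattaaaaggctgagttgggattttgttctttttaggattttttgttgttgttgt
Over the table's windows, which span each gene's start, these letters occur in 7.45% of 13605 tested genes, in 8.30% of 229 genes that rose and in 2.63% of 152 that fell. A match is a description of the sequence only.

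Among the genes that passed both with and without the Xist-high mice was Hba-a1, an adult alpha-globin gene of red blood cells. It was 11.03, 11.01, 10.28, 10.34 and 11.67 in chow livers and had a lowest, median and highest value of 12.57, 12.69 and 12.98 in treated livers. All 6 treated livers lay above all chow livers, and the difference of 1.88 (SE 0.247, adjusted p = 8.62e-05) was 1.75 (SE 0.363, adjusted p = 0.0374) with the Xist-low mice alone. Hbb-b2, an adult beta-globin gene, rose by 1.69 (SE 0.264, adjusted p = 0.000423), also with no overlap, and by 1.58 (adjusted p = 0.125) with the Xist-low mice. Globin genes are near-identical copies, and probe sets may not separate them. The entry for Hba-a2, another alpha-globin gene, was dim, averaging 4.73 in treated and 4.75 in chow livers (-0.02, adjusted p = 0.947). Of 11 measured haemoglobin and erythroid genes 7 were higher with all mice (median 0.06), and 8 with the Xist-low mice alone (median 0.17). With all mice 2 passed higher and 1 lower, against 1.64% and 1.13% of all genes. Alas2, which makes haem in red cell precursors, fell by 1.23 (adjusted p = 0.0327, up to 0.0984 with any of 7 mice left out) and differed by -0.09 in the Xist-low mice, and the membrane anion exchanger Slc4a1 and the factor Klf1 gave no call at 0.26 and 0.61. How much blood the tissue held was not tested.

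Casp6, an executioner caspase, was 7.68, 7.40, 7.32, 7.46 and 8.08 in chow livers and 8.45, 9.20 and 9.43 at the lowest, median and highest of the treated livers. The rise of 1.49 (SE 0.194, adjusted p = 8.62e-05) was of similar size in the Xist-low mice, at 1.39 (SE 0.253, adjusted p = 0.0215). Slc39a8, which imports zinc and manganese, was 7.88, 8.17, 8.01, 8.12 and 7.89 in chow livers and 8.48, 8.70 and 8.99 in treated livers. It rose by 0.70 (SE 0.0989, adjusted p = 0.000192), and by 0.68 (adjusted p = 0.024) without the Xist-high mice. Both genes separated the groups with no overlap. Jade1, a scaffold of histone acetyltransferase complexes, rose by 0.76 and by 0.98 (adjusted p = 0.00189 and 0.024). The mitochondrial fat-burning enzymes Acadl and Etfdh rose by 0.22 and 0.27 (adjusted p = 0.00481 and 0.024), and by 0.28 and 0.41 with the Xist-low mice alone (adjusted p = 0.0278 and 0.0374). The Etfdh call with all mice ended without Hlth_1804, Hlth_1965 or Hlth_1968 (adjusted p up to 0.0642). Of 22 genes of PPAR-alpha and fatty acid oxidation 11 were higher and 11 lower with all mice, with a median of 0.01. Only Acadl of these passed, against 2.77% of all genes. In the Xist-low mice 21 of the 22 were higher (median 0.23), and in the Xist-high mice 7 (median -0.10).

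Trp53inp2, which takes part in autophagy, was 10.28, 10.67, 10.80, 11.09 and 10.79 in chow livers and 9.21, 9.76 and 9.84 at the lowest, median and highest of the treated livers. It fell by 1.05 (SE 0.133, adjusted p = 8.62e-05), and by 0.91 (adjusted p = 0.025) without the Xist-high mice. Rnd2 was 6.34, 7.15, 7.23, 6.59 and 6.88 in chow livers and 4.97, 5.56 and 6.00 in treated livers, a fall of -1.30 (SE 0.191, adjusted p = 0.000305). Lad1, which encodes the anchoring filament protein ladinin and is expressed in biliary epithelium, had chow values of 5.44, 5.58, 5.13, 5.37 and 5.29 against 4.33 to 4.68. It fell by 0.85 (SE 0.106, adjusted p = 8.62e-05), and the other biliary markers Krt19 and Epcam gave no call at -0.31 and -0.61. None of these overlapped between the groups. Kitl, the ligand of the receptor Kit, fell by 0.68 and the Golgi protein gene Grina by 0.89 (adjusted p = 0.000334 and 0.000186). The lysosomal enzyme Manba fell by 0.55 and Tkt, the transketolase of the pentose phosphate pathway, by 0.40 (adjusted p = 0.00124 and 0.0116). Each of these 4 also passed without the Xist-high mice. These genes were chosen after their values were seen, except Hba-a1, Slc39a8, Acadl and Lad1.

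**Figure D3:**
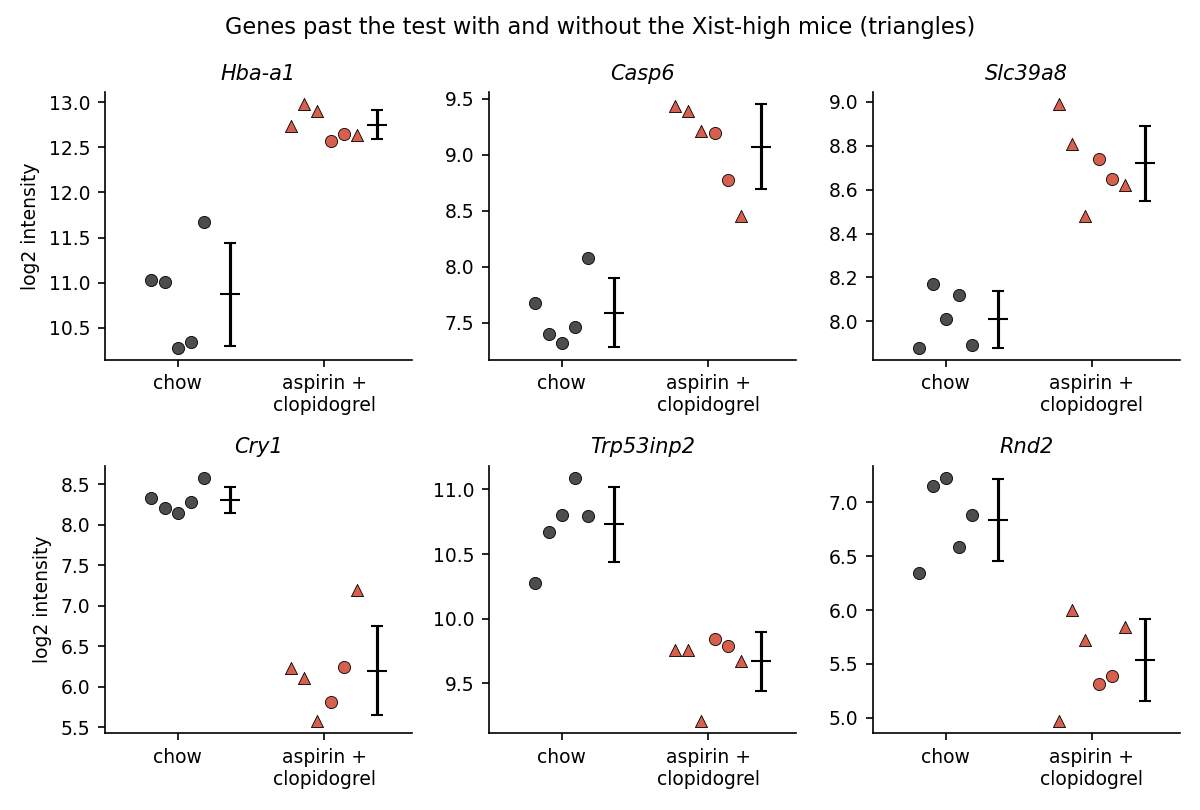
Hba-a1, Casp6, Slc39a8, Cry1, Trp53inp2 and Rnd2 as log2 intensity in 5 chow and 6 treated mice, with triangles for the Xist-high mice and bars for the group mean ± SD. In all 6 genes the treated mice, circles and triangles alike, lie on one side of every chow mouse.

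A set of 14 genes passed only in the fit without the Xist-high mice. Isoc1, an isochorismatase-domain protein, was 9.09 and 9.16 in the Xist-low mice, below chow livers (9.85 to 10.13) and below the Xist-high mice (10.01 to 10.13). Ddit3, the stress transcription factor CHOP, was 7.20 and 8.61 in them and 5.62 to 5.99 in the Xist-high mice, against 7.52, 6.03, 5.95, 5.81 and 6.42 in chow livers. Its difference was 1.56 (SE 0.316, adjusted p = 0.0339) with the Xist-low mice alone and 0.14 (adjusted p = 0.916) with all 6. Srebf2, the master regulator of cholesterol synthesis, was 5.45 and 5.30 in the Xist-low mice and 5.72 to 6.42 in chow livers, a difference of -0.76 (adjusted p = 0.0374). No member of de novo lipogenesis (13 measured) or of cholesterol synthesis (18 measured) passed with all mice, and their medians were -0.30 and -0.09. In the Xist-low mice the medians were -0.98 and -0.75, with 0 and 1 members higher. In the Xist-high mice they were 0.09 and 0.31, with 9 and 16 higher. In cholesterol synthesis 1 member fell past the test in the Xist-low mice and 1 rose in the Xist-high mice. Over all genes 0.216% and 5.73% passed in those fits. Fasn, the fatty acid synthase, was 9.20 and 9.85 in the Xist-low mice, 11.08 to 12.09 in the Xist-high mice and 11.05 to 11.70 in chow livers, and the difference of -1.80 in the Xist-low mice gave adjusted p = 0.173.

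Of 22 clock genes 1 rose and 2 fell past the test, against 1.64% and 1.13% of all genes, and in the Xist-low mice alone 1 fell. Cry1, a repressor of the circadian clock, was 8.33, 8.21, 8.15, 8.28 and 8.58 in chow livers and 5.58, 6.17 and 7.19 at the lowest, median and highest of the treated livers. It fell by 2.11 (SE 0.343, adjusted p = 0.000653) with no overlap, and by 2.28 (adjusted p = 0.0374) without the Xist-high mice. Lonrf3, a RING-finger gene listed as clock-controlled, was 6.77, 6.76, 6.82, 6.61 and 7.35 against 5.31, 5.66 and 5.96, a fall of -1.21 (SE 0.204, adjusted p = 0.00108), and differed by -1.26 (adjusted p = 0.0914) in the Xist-low mice. Nr1d2, the repressor REV-ERB beta, was 6.79, 9.48, 9.0, 9.49 and 8.63 in chow livers and 9.86, 10.18 and 10.75 in treated livers. It rose by 1.51 (SE 0.367, adjusted p = 0.0209), a call that ended without Hlth_1798 or AspClo_58 (adjusted p up to 0.062). Dbp, an output activator, was 4.63 to 6.19 in chow livers and 5.30, 7.82 and 10.20 in treated livers, and its difference of 2.56 (SE 0.948) gave adjusted p = 0.163. Arntl, the core activator BMAL1, was 4.51 to 5.46 in 5 treated mice and 7.11 in mouse AspClo_63, the mouse with the lowest Dbp, against 5.97 to 7.10 in chow livers. Only 1 of the 2 Arntl probe sets was lower on average in treated livers. Vehicle livers without HCC had Cry1 values of 7.12 to 8.99 and those with HCC 5.51 to 6.76. The time of day of collection is not in the labels, and its part in these differences was not tested.

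The 150 bases before the starts of Cry1 and Lonrf3, the 2 clock genes that fell, are shown with the E-box CACGTG in capitals. This is the letters bound by the BMAL1 and CLOCK pair, and they read the same on both strands.
Cry1, chr10:85185055-85185204, minus strand: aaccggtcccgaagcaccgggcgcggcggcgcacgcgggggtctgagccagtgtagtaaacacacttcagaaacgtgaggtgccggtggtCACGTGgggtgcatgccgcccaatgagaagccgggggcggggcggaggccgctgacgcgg
Lonrf3, chrX:36328259-36328408, plus strand: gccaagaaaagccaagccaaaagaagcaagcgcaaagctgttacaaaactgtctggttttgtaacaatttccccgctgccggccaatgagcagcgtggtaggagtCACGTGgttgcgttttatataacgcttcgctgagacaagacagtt
The E-box lies 60 to 55 bases before the start of Cry1 and 45 to 40 before that of Lonrf3. It occurs in 9% of all windows, 9.61% of those of genes that rose and 7.24% of those of genes that fell.

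Some interferon-inducible GTPases rose with all 6 treated mice, and none passed with the Xist-low mice alone. Irgm2, an immunity-related GTPase of intracellular defence, was 8.22, 7.87, 8.08, 8.41 and 7.77 in chow livers and 8.93, 9.27 and 9.73 at the lowest, median and highest of the treated livers. It rose by 1.25 (SE 0.18, adjusted p = 0.000228), and the groups did not overlap. Iigp1, of the same family, was 11.36, 11.34, 11.18, 11.35 and 11.02 against 11.54, 11.64 and 11.83, a rise of 0.40 (SE 0.0613, adjusted p = 0.000334) with no overlap. In the Xist-low mice alone these differences were 0.99 (adjusted p = 0.13) and 0.35 (adjusted p = 0.0914). Igtp, the third GTPase of this kind, rose by 0.93 (SE 0.24, adjusted p = 0.0292), with all 6 treated livers above chow, though leaving out any of 6 mice ended the call (adjusted p up to 0.0886). The guanylate-binding proteins Gbp7 and Gbp3 rose by 1.15 and 1.30 (adjusted p = 0.0132 and 0.0337), and the Gbp3 call ended without any of 7 mice (adjusted p up to 0.0966). Gbp7 was 7.32 and 7.67 in the Xist-low mice, against 7.10 to 7.49 in chow livers and 8.58 to 9.19 in the Xist-high mice. Gbp2, Tgtp1 and Irgm1, GTPases of the same families, did not pass, with differences of 1.23, 1.19 and 0.50 (adjusted p = 0.134, 0.166 and 0.0864), nor did Gbp4 at -0.06 and Gbp8 at 0.15.

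Irf9, the subunit that brings the interferon-activated complex to DNA, was 7.33, 6.98, 7.27, 7.39 and 7.23 in chow livers and 7.65, 7.86 and 8.19 in treated livers, a rise of 0.65 (SE 0.121, adjusted p = 0.00281) with no overlap. In the Xist-low mice its difference was 0.53 (adjusted p = 0.307). The antigen-presenting class I molecule H2-T23 rose by 0.32 (SE 0.0695, adjusted p = 0.00948), though only 1 of its 2 probe sets moved up. Of 35 genes of MHC class I and interferon-gamma response, 6 rose past the test and none fell, with 29 higher and a median of 0.24. Of 37 type I interferon genes 3 rose, with 33 higher and a median of 0.34. Over all genes 51.2% were higher and 1.64% rose past the test. In the Xist-low mice the medians were 0.01 and -0.05, and none of either list passed. Ifit3 and Ifit1, antiviral RNA-binding proteins, differed by 1.02 and 0.81 (adjusted p = 0.203 and 0.209). Chow mouse Hlth_1798 held the highest chow value of both. Without chow mice Hlth_1798 and Hlth_1807, 12 of the 37 type I interferon genes rose, against 437 of all 17097 genes in that fit.

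The 150 bases before Irgm2 and Gbp7 are shown because both rose and both hold 2 interferon-linked motifs, TTCNNNGAA and GAAANNGAA (on either strand), the core of the interferon-stimulated response element, in capitals.
Irgm2, chr11:58214827-58214976, plus strand: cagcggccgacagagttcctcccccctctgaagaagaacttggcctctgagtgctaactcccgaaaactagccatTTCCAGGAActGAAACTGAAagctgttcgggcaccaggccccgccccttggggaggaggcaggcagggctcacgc
Gbp7, chr3:142530186-142530335, plus strand: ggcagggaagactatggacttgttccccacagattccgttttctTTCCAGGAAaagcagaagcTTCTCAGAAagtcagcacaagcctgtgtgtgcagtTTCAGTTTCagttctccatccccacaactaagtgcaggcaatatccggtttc
In Irgm2 they lie 75 to 67 and 64 to 56 bases before the start. In Gbp7 the first motif occurs at 106 to 98 and 87 to 79 bases and the second at 52 to 44. GAAANNGAA occurs in 7.31% of all windows, 9.61% of those of genes that rose and 3.95% of those of genes that fell.

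**Figure D4:**
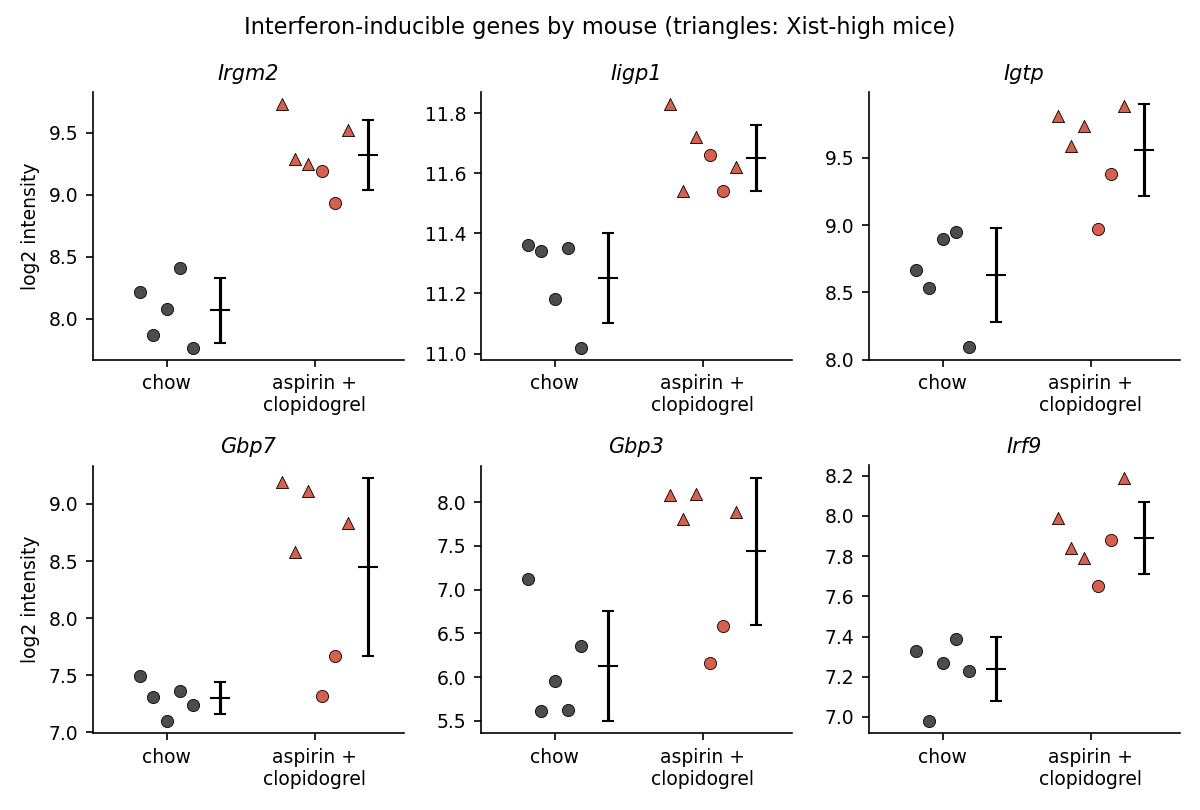
Irgm2, Iigp1, Igtp, Gbp7, Gbp3 and Irf9 as log2 intensity in 5 chow and 6 treated mice, with triangles for the Xist-high mice and bars for the group mean ± SD. Irgm2, Iigp1, Igtp and Irf9 are above every chow mouse in all 6 treated mice, and for Gbp7 and Gbp3 the Xist-low mice (circles) fall near or inside the chow range.

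Of 28 acute phase genes 5 rose and 1 fell, and in the Xist-low mice alone none passed (median 0.19 with all mice, 0.03 with these). Over all genes 1.64% rose and 1.13% fell, shares that also apply to the coagulation and complement lists below. Crp, the pentraxin C-reactive protein, was 11.58, 11.70, 11.51, 11.77 and 11.61 in chow livers and 11.83, 11.86 and 11.97 in treated livers, a rise of 0.25 (SE 0.0488, adjusted p = 0.0043) with no overlap. Lbp, which binds bacterial lipopolysaccharide, rose by 0.69 (adjusted p = 0.0116), and Cebpd, a transcription factor of the acute phase, fell by 0.93 (SE 0.19, adjusted p = 0.00616). Saa1, the major acute phase protein, was 9.46 to 11.69 in chow livers and 10.19 to 11.28 in treated livers and did not pass (adjusted p = 0.597). Crp, Lbp and Cebpd differed by 0.23, 0.55 and -0.87 (adjusted p = 0.28, 0.375 and 0.274) in the Xist-low mice. Of 33 coagulation genes 4 rose and none fell: the fibrinogen chain Fga by 0.23, the plasmin inhibitor Serpinf2 by 0.43, heparin cofactor Serpind1 by 0.31 and the clotting factor subunit F13b by 0.26 (adjusted p = 0.0108, 0.0142, 0.0162 and 0.0338). The Serpind1 call ended without Hlth_1807 (adjusted p = 0.0591) and that of F13b without any of 5 mice (adjusted p up to 0.0966). Fga was 12.39, 12.33, 12.18, 12.30 and 12.24 in chow livers and 12.46, 12.50 and 12.60 in treated livers, and its difference was 0.24 in the Xist-low mice (adjusted p = 0.301), where none of the 33 passed and the median was 0.09, against 0.10 with all mice. In the complement system the lectin Mbl2 rose by 0.45 (adjusted p = 0.00322) and C6 fell, of 25 genes. In the Xist-low mice Mbl2 differed by 0.38 (adjusted p = 0.319), and none of the 25 passed.

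Hamp2, a paralog of hepcidin (Hamp), the hormone that blocks iron release into plasma, was 11.23, 10.78, 10.50, 10.24 and 9.44 in chow livers and 11.30, 12.77 and 13.08 at the lowest, median and highest of the treated livers. It rose by 1.99 (SE 0.454, adjusted p = 0.0133), with all 6 treated livers above chow, and by 1.08 (adjusted p = 0.728) in the Xist-low mice. Hamp itself was 10.92 to 12.86 in chow livers and 12.06 to 12.91 in treated livers, a difference of 0.25 (SE 0.243, adjusted p = 0.708). The 150 bases before both starts are shown to compare the paralogs, with TTCNNNGAA in capitals, 94 to 86 bases before the start in Hamp2 and 97 to 89 in Hamp.
Hamp2, chr7:30924182-30924331, minus strand: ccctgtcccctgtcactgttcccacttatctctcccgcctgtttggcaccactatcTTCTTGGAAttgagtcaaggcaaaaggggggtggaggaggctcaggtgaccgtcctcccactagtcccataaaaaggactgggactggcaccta
Hamp, chr7:30944030-30944179, minus strand: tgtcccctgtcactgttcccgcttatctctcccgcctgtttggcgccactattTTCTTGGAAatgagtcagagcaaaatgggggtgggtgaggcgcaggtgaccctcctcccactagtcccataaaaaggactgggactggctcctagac
The same 9 letters stand in both genes, of which Hamp2 passed the test and Hamp did not. Slc25a37, the mitochondrial iron importer, fell by 0.91 (SE 0.141, adjusted p = 0.000401), and of 21 iron genes 2 rose and 1 fell, against 1.64% and 1.13% of all genes.

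In the lipid lists few genes passed. Fitm1, which partitions fat into droplets, was 9.51, 10.20, 10.09, 10.16 and 9.54 in chow livers and 7.40, 8.01 and 9.67 in treated livers, a fall of -1.74 (SE 0.246, adjusted p = 0.000199). The 1 treated liver inside the chow range was AspClo_62, and in the Xist-low mice the difference was -0.85 (adjusted p = 0.16). Plin5, a droplet coat protein of oxidative tissues, fell by 1.18 (SE 0.268, adjusted p = 0.013), with all 6 below the chow range, and differed by -0.77 (adjusted p = 0.546) in the Xist-low mice. Plin2, the main droplet coat of steatotic hepatocytes, differed by 0.04 (SE 0.109, adjusted p = 0.928), with chow values of 11.64 to 12.40 and treated values of 11.74 to 12.16. Of 18 droplet genes 2 fell and none rose, against 1.13% and 1.64% of all genes. Vldlr, a lipoprotein receptor, rose by 0.52 (SE 0.097, adjusted p = 0.0029), and Tm6sf2, which loads lipid into VLDL, by 0.85 (adjusted p = 0.0145), a call that ended without chow mouse Hlth_1807 (adjusted p = 0.0535). Vldlr and Tm6sf2 differed by 0.35 and 0.34 (adjusted p = 0.298 and 0.825) in the Xist-low mice. Abcd2, a peroxisomal fatty acid transporter, was 5.88, 4.81, 5.02, 4.66 and 4.85 in chow livers and 6.31, 7.75 and 8.09 in treated livers, a rise of 2.43 (SE 0.34, adjusted p = 0.00019), and 1.56 (adjusted p = 0.2) in the Xist-low mice.

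In choline and methyl-group metabolism 1 of 23 genes passed, against 2.77% of all genes. Cbs, which channels homocysteine into cysteine, was 9.87, 9.65, 9.65, 9.82 and 9.19 in chow livers and 10.10, 10.62 and 10.86 in treated livers, a rise of 0.91 (SE 0.161, adjusted p = 0.00167), and 0.57 (adjusted p = 0.446) in the Xist-low mice. Pemt, which makes phosphatidylcholine without dietary choline, differed by 0.09 (SE 0.0679, adjusted p = 0.598). Csad, which makes the taurine precursor hypotaurine from cysteine products, fell by 1.95 (SE 0.456, adjusted p = 0.0153), and the call ended without AspClo_58 or Hlth_1965 (adjusted p up to 0.0509). It differed by -1.17 (adjusted p = 0.691) in the Xist-low mice. Of 27 periportal and amino acid genes 2 rose and none fell, against 1.64% and 1.13% of all genes. Agxt, a peroxisomal glyoxylate aminotransferase, was 9.41, 9.97, 10.20, 10.24 and 9.09 against 10.62, 11.38 and 11.57, a rise of 1.43 (SE 0.217, adjusted p = 0.000334), and Slc7a2, an arginine transporter, rose by 0.95 (adjusted p = 0.00256), both with no overlap. They differed by 0.95 and 0.64 (adjusted p = 0.277 and 0.405) in the Xist-low mice. Irs1, the insulin receptor substrate, rose by 0.82 (SE 0.184, adjusted p = 0.0121) and Klb, the FGF21 and FGF15 co-receptor, by 0.96 (SE 0.196, adjusted p = 0.00616), again with no overlap. Their differences in the Xist-low mice were 0.74 and 0.95 (adjusted p = 0.395 and 0.251). The bile acid enzyme Cyp7a1 ranged widely, from 6.58 to 11.61 in chow and 8.37 to 11.37 in treated livers, and did not differ (-0.02, SE 0.686, adjusted p = 0.996).

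Genes of drug handling moved in both directions. Of 48 P450 genes 7 rose and 2 fell, against 1.64% and 1.13% of all genes. All but Cyp2j5 and Cyp4b1 of these 9 are also in the sex-biased lists. With the Xist-low mice alone none of the 48 passed. Without Hlth_1798 and Hlth_1807 4 rose and 6 fell, against 437 and 391 of all 17097 genes in that fit. Slco1a4, an organic anion uptake carrier, was 7.50, 8.98, 8.73, 8.42 and 6.92 in chow livers and 9.34, 10.21 and 10.83 in treated livers, a rise of 2.06 (SE 0.343, adjusted p = 0.000853), and Sult1c2, a sulfotransferase, rose by 1.82 (SE 0.35, adjusted p = 0.0038). All 6 treated livers were above chow for both, with differences of 1.47 and 1.40 in the Xist-low mice (adjusted p = 0.307 and 0.364). The exporter Abcg2 fell by 1.11 (SE 0.199, adjusted p = 0.00192) but differed by -0.31 (adjusted p = 0.723) in the Xist-low mice. Of 31 genes of clopidogrel and aspirin handling 2 rose and 1 fell, all by little, against 1.64% and 1.13% of all genes. Ces1c, a plasma carboxylesterase, rose by 0.20 (adjusted p = 0.0423) and the hydrolase Bphl by 0.19 (adjusted p = 0.0202), calls that ended without any of 8 and of 4 mice (adjusted p up to 0.116 and 0.0647). Pon2, a paraoxonase, fell by 0.38 (adjusted p = 0.00834). Ces1c, Bphl and Pon2 differed by 0.10, 0.10 and -0.21 (adjusted p = 0.83, 0.762 and 0.664) in the Xist-low mice. Ces1d and Ces1g, liver carboxylesterases, gave no call at -0.41 and -0.16 (adjusted p = 0.0869 and 0.634).

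Glutathione and NRF2 target genes were mostly lower, at 31 of 39 with a median of -0.29, and 3 fell past the test. Over all genes the median was 0.003 and 1.13% fell. Gstp1, a glutathione transferase, was 13.12, 13.09, 13.09, 13.11 and 12.95 in chow livers and 12.19, 12.44 and 12.88 in treated livers, a fall of -0.59 (SE 0.0905, adjusted p = 0.00037) with no overlap. Gsta4 fell by 0.69 (SE 0.169, adjusted p = 0.0203), also with no overlap, and the epoxide hydrolase Ephx1 by 0.69 (SE 0.161, adjusted p = 0.0153). The Gsta4 call ended without AspClo_64, Hlth_1798 or Hlth_1804 (adjusted p up to 0.0589) and that of Ephx1 without AspClo_58 (adjusted p = 0.0509). Nqo1, a defining NRF2 target, was 8.59 in chow mouse Hlth_1798, 6.10 to 6.43 in the other chow mice and 5.62 to 6.91 in treated mice (adjusted p = 0.618). Without chow mice Hlth_1798 and Hlth_1807 the list median was -0.02. With the Xist-low mice alone none of the 39 passed, and the median was -0.17. There Ephx1 differed by -0.11 (adjusted p = 0.937), Gstp1 by -0.30 (adjusted p = 0.303) and Gsta4 by -0.62 (adjusted p = 0.484). Fmo5, a flavin monooxygenase, fell by 0.87 (SE 0.121, adjusted p = 0.00019) with no overlap, and differed by -0.65 (adjusted p = 0.13) in the Xist-low mice.

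The drugs' own targets gave no call. Ptgs2 lay between 4.25 and 4.4 in chow livers and 4.23 and 4.37 in treated livers, among the dimmest genes, a difference of -0.03 (SE 0.0392, adjusted p = 0.821). P2ry12 was 4.23 to 5.15 against 4.4 to 4.87, a difference of 0.12 (SE 0.124, adjusted p = 0.742). Ptgs1 had no probe set with a single gene symbol and is not analysed here. None of 22 platelet genes and none of 29 prostanoid genes passed in either direction, with medians of 0.06 and 0.01. The platelet chemokine Pf4 was 4.76 to 6.18 in chow livers and 4.92 to 6.87 in treated livers (adjusted p = 0.974).

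Lists for scarring and immune cells had few or no calls. None of 39 collagen and matrix genes passed (median -0.01), nor did any of 22 stellate cell genes (0.11) or 34 macrophage and monocyte genes (0.21). Without chow mice Hlth_1798 and Hlth_1807, 8 matrix, 4 stellate cell and 5 macrophage genes rose and none fell, and the medians were 0.32, 0.20 and 0.68. More genes passed in that fit, with 437 of all 17097 higher and 391 lower. In the Xist-low mice the macrophage median was -0.34, with 3 of 34 genes higher. Col1a1, the main scar collagen, was 4.76, 4.31, 4.31, 4.4 and 5.13 in chow livers and 4.18 to 4.33 in treated livers, near the floor of the arrays (adjusted p = 0.188). Of 17 resident Kupffer cell genes 13 were higher with a median of 0.37, but only C6, also a hepatocyte gene, passed, and it fell. The Kupffer cell median was 0.01 in the Xist-low mice, with 10 of 17 higher, and in the Xist-high mice 0.55. Zap70, a T cell kinase, rose by 1.30 (SE 0.321, adjusted p = 0.0221, up to 0.0665 with any of 5 mice left out), and no other of 35 T and NK cell genes passed. Zap70 was 7.80 and 8.33 in the Xist-low mice, inside the chow range of 6.96 to 8.38, a difference of 0.45 (adjusted p = 0.871). Of 35 endothelial genes 31 were higher with a median of 0.27, and 1 passed. Over all genes 51.2% were higher, the median was 0.003 and 2.77% passed. The 1 endothelial gene was Oit3, a sinusoidal marker, at 8.15 to 8.56 against 7.10 to 8.0 (0.68, SE 0.16, adjusted p = 0.016), a call that ended without Hlth_1807 (adjusted p = 0.0591). The endothelial median was 0.07 in the Xist-low mice, with 23 of 35 higher and none past the test, and Oit3 differed by 0.48 (adjusted p = 0.638). In the Xist-high mice the endothelial median was 0.40, with 12 of 35 genes past the test, against 5.73% of all genes in that fit. Top2a, a topoisomerase of dividing cells, fell by 0.22 (adjusted p = 0.0267, up to 0.0937 with any of 4 mice left out), with all values between 4.42 and 4.97. Of its 3 probe sets 2 moved down, and Top2a differed by -0.21 (adjusted p = 0.402) in the Xist-low mice. Mki67, a proliferation marker, did not pass (-0.13, adjusted p = 0.847).

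A list of 13 genes known to differ between C57BL/6 substrains held 2 that rose and 3 that fell, against 1.64% and 1.13% of all genes. Wdfy1, an endosomal adaptor, was 4.87, 5.06, 5.01, 5.33 and 4.96 in chow livers and 5.04, 7.03 and 7.85 at the lowest, median and highest of the treated livers, a rise of 1.77 (SE 0.3, adjusted p = 0.00108). It was 4.80 to 5.70 in the 9 vehicle mice and 7.50 to 8.04 in the 10 sulindac mice, so the treated mice spanned both levels. Nnt, the mitochondrial transhydrogenase that carries a deletion in C57BL/6J, was 9.25 to 9.71 in chow livers, 10.65 to 10.92 in the Xist-high mice and 9.70 and 9.92 in the Xist-low mice. It was 9.14 to 10.01 under vehicle and 10.55 to 10.87 under sulindac, and its rise was 1.02 (SE 0.171, adjusted p = 0.000957). Entpd4, a Golgi nucleotidase, fell by 0.89 (SE 0.128, adjusted p = 0.000222), with values of 5.93 to 6.72 against 6.82, 6.92, 7.17, 7.30 and 7.35. Entpd4 and its list neighbour Slc25a37 also passed without the Xist-high mice (adjusted p = 0.023 and 0.0374), and the sulindac mice, at 6.01 to 6.32 and 8.20 to 8.61, lay below every chow and vehicle mouse for both. Sfi1, a centrosomal gene, fell by 0.54 (adjusted p = 0.00976). Wdfy1, Nnt and Sfi1 differed by 0.63, 0.39 and -0.48 (adjusted p = 0.375, 0.561 and 0.326) in the Xist-low mice. The part of strain in these and in other differences was not tested.

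**Figure D5:**
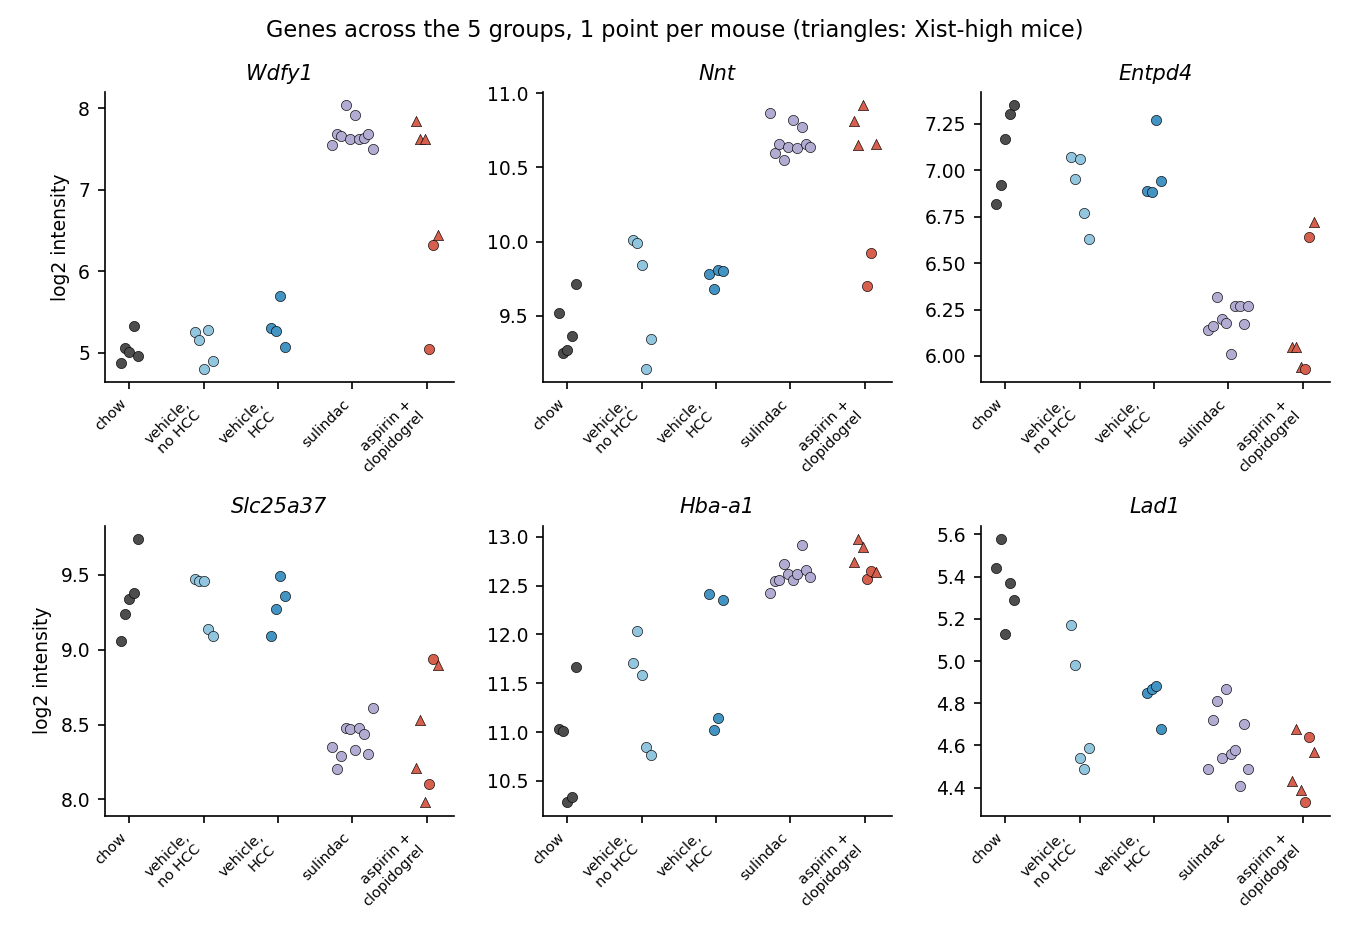
Wdfy1, Nnt, Entpd4, Slc25a37, Hba-a1 and Lad1 as log2 intensity in the 5 groups, with 1 point per mouse and triangles for the Xist-high mice. Wdfy1 is 4.80 to 5.70 in chow and vehicle mice, 7.50 to 8.04 under sulindac and 5.04 to 7.85 under aspirin with clopidogrel, while Lad1 averages 4.75, 4.82 and 4.62 in the vehicle groups and under sulindac, between the chow (5.36) and treated (4.51) means.

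The treated livers were also set against the other livers on the diet, in comparisons that share the treated arrays with the one above. Against the 9 vehicle mice 335 genes passed (1.96%), and against sulindac 150 (0.877%). No vehicle or sulindac mouse was Xist-high, so these comparisons carry the same split of the treated group. Of the genes that held without the Xist-high mice, Trp53inp2 differed from vehicle by -0.72 (adjusted p = 0.00121), Grina by -0.69 (adjusted p = 0.000954) and Rnd2 by -0.85 (adjusted p = 0.00675). Hba-a1 was higher by 1.21 (adjusted p = 0.00296), Casp6 by 0.65 (adjusted p = 0.0385) and Slc39a8 by 0.37 (adjusted p = 0.024). None of these 6 passed against sulindac: Trp53inp2 differed by -0.28, Grina by -0.41 and Rnd2 by -0.43 (adjusted p = 0.321, 0.053 and 0.267), and Hba-a1 by 0.12, Casp6 by 0.18 and Slc39a8 by 0.24 (adjusted p = 0.905, 0.782 and 0.225). Hba-a1 averaged 12.62 under sulindac and 12.75 in the treated livers. Lad1, Kitl and Irgm2 did not pass against the 9 vehicle mice, at -0.28, -0.02 and 0.57 (adjusted p = 0.127, 0.951 and 0.0521). Cry1 differed by -2.03 (adjusted p = 0.00304) from vehicle livers without HCC and by 0.15 (adjusted p = 0.91) from those with HCC, and by -1.06 (adjusted p = 0.0609) from both together. Ncald, a neuronal calcium sensor, was 5.84 to 6.36 in chow livers and 6.80 to 7.95 in treated livers. It was higher by 1.31 than chow (adjusted p = 8.62e-05), by 1.14 than vehicle (adjusted p = 0.000213) and by 0.63 than sulindac (adjusted p = 0.0323). Ncald was 7.38 to 7.95 in the Xist-high mice. The Xist-low mice, at 6.95 and 6.80, lay inside the sulindac range of 6.42 to 7.25. Pparg, the lipid-storage regulator raised in steatotic liver, and its target Cidea, a droplet fusion protein, did not pass against chow at -0.32 and -2.72 (adjusted p = 0.488 and 0.0627). Against vehicle they differed by -1.13 and -3.66 (adjusted p = 0.000924 and 0.00516).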

How the data were processed

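Liver RNA of each mouse was hybridised to 1 Affymetrix HT MG-430 PM array. The deposited values are linear intensity per probe set; the authors used RMA and quantile normalization, per the design text and the submitters' notes, and the RMA version is not given in the sources used. The number of arrays limits the precision. Here log2 was taken, and of the 28898 probe sets with 1 symbol (of 45141) the brightest was kept for each of 17097 genes. All 30 arrays entered 1 limma 3.58.1 fit (R 4.3.3) of 5 group means, with Benjamini-Hochberg adjustment over all genes at 0.05. On simulated arrays for this comparison it recovered 60.2% of genes changed by 0.5, with 4.2 false calls per run. Of genes changed by 1 it recovered 89%, with 8.2 false calls per run. Recovery of genes split between the Xist-high and Xist-low mice, such as Sult2a2, was not tested, so these rates do not apply to them. The comparison, gene lists and naming rule were chosen with earlier results of these data known. The rule names 89 genes: up to 15 of the largest called changes per direction, up to 4 called members per list and 8 fixed genes, of which Ptgs1 had no value. Others were chosen after their values were seen. List scores average the members' differences from the chow mean. Motifs were searched on both strands of RefSeq promoter windows. Alternatives left out mice, reweighted or rescaled arrays, and changed the filter, probe-set rule and fit. The design text lists 4 vehicle mice and the labels 9, which were followed.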

Additional observations from a re-analysis of the deposited data

Results flagged for a closer look

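In 18 of 178 combinations of a named gene and a group, 1 mouse lay far from the rest of its group, and chance flags about 1 in 20. Chow mouse Hlth_1798 stood apart for Cyp2b13 (5.26, others 4.13 to 4.35), Cyp2b9 (9.52, others 5.57 to 6.48), Lbp (10.54, others 9.79 to 10.00) and P2ry12 (5.15, others 4.23 to 4.45). It was low for Cyp4a12a (9.90, others 11.39 to 11.74), Elovl3 (10.78, others 11.41 to 11.63), Csad (8.98, others 10.32 to 10.82), Dnase2a (8.80, others 9.98 to 10.32) and Acadl (11.44, others 11.54 to 11.56). Chow mouse Hlth_1807 was high for Igfbp3 (7.84, others 5.60 to 5.99) and Lonrf3 (7.35, others 6.61 to 6.82), and low for Gstp1 (12.95, others 13.09 to 13.12), Oit3 (7.10, others 7.75 to 8.0) and Edem1 (9.83, others 10.11 to 10.21). Chow mouse Hlth_1804 was high for Cyp3a16 (4.33, others 4.10 to 4.15). In the treated group, mouse AspClo_62 was high for Gnai1 (5.52, others 4.71 to 4.93) and mouse AspClo_63 for Vldlr (5.61, others 4.95 to 5.18) and Arntl (7.11, others 4.51 to 5.46).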

How the results depend on the processing

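The main counts were 280 genes higher and 193 lower. Leaving out 1 mouse at a time gave 165 to 418 higher and 110 to 311 lower, with the fewest lower without AspClo_58 and the most without AspClo_62. Counts fell to 42 and 32 with only the 11 arrays in the fit, and rose to 437 and 391 without chow mice Hlth_1798 and Hlth_1807, and to 648 and 572 with array weights. They were 18 and 19 without the 4 Xist-high mice (fewer samples) and 586 and 393 without the 2 Xist-low mice. A minimum absolute log2 change of 0.5 left 137 and 109, and of 1 left 48 and 36. The cause of the changes with array weights and with single mice was not tested. Without the 4 Xist-high mice, 463 of the 473 genes kept their sign, and of the named genes past the test 5 changed sign: Sult2a2 (-0.01), Xist (-0.09), Cyp3a41a (-0.22), Cyp3a16 (-0.06) and Eif2s3y (0.38). Of the 85 named genes past the test, 57 passed under every leave-one-out fit, 18 in the fit of 11 arrays and 7 without the Xist-high mice, where 80 kept their sign. No paired analysis was possible because the groups share no animal numbers.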
